A study of Mus musculus with 6 samples.

Results

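Adipocyte genes were read in the lungs of mice that lack Col6a1 and in wildtype lungs. The 10 genes were taken by name from the 49568 rows of the table of normalized counts, as a gauge of fat tissue carried along with a dissected lobe. Of these, 8 are grouped here as white fat genes (Adipoq, Lep, Retn, Cfd, Plin1, Cidec, Fabp4 and Car3) and 2 as brown fat genes (Ucp1 and Cidea). These names do not mean that a gene is limited to that kind of fat. The Col6a1-/- group and the wildtype group each had 3 libraries from C57BL/6 mice aged 6 weeks. Each library was made from the pooled RNA of 2 animals, which gave 12 animals in all, and each animal entered 1 pool. The tissue was the right lung lobes, taken after the lung vessels had been flushed with cold PBS through the heart. The sex of the animals was not given in the labels, and no treatment other than this preparation was named in either group. The column of wildtype replicate 2 carries the added word New, whose meaning the labels leave unstated.

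White fat cells store triglyceride in 1 large lipid droplet and secrete hormones into the blood. Brown fat cells hold many small droplets and many mitochondria, and they make heat with the uncoupling protein of the inner mitochondrial membrane. Fat lies around the hilum, the large vessels and the mediastinum rather than among the alveoli, so that a dissected lobe can bring some of it along. In bulk tissue, a larger share of a cell type and more RNA per cell of that type cannot be told apart.

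All 8 white fat genes were detected in every library, and their mean levels were higher in Col6a1-/- lungs, by 1.32-fold for Cidec, by 2.13-fold to 2.75-fold for Cfd, Plin1, Adipoq, Fabp4, Car3 and Retn, and by 5.59-fold for Lep. Of the 2 brown fat genes, Ucp1 was close to the limit of detection and Cidea was low. Libraries of the same genotype were far apart for most of the white fat genes, however, though close for Cidea. No gene of the 10 passed the test across all genes. The test was limma on log2(normalized count + 1) with Benjamini-Hochberg adjustment over the 16879 genes whose normalized count reached 10 in 3 or more libraries, and an adjusted p under 0.05 was called. Of the 10 genes, 9 could be tested, all but Ucp1, and 0 were called, against 0.0652% of all tested genes. Lep passed the filter on low values only through the Col6a1-/- libraries, since it was under 10 in every wildtype library. For Lep the higher direction and the lack of overlap were thus fixed by the filter. At an unadjusted p under 0.05 there were 8 of the 9, all but Cidec and each higher, against 9.72% of all tested genes. Lep was among these 8, and the count describes a set chosen with results of these data known. The groups did not overlap for 7 of the 9, Lep among them, each higher in Col6a1-/- lungs, against 10.7% of all tested genes that were higher without overlap.

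The 250 bases before the start of 3 of the white fat genes are shown because they differ in 1 motif known from fat. Capitals mark matches of TTGCNNAA, a form of the site bound by C/EBP factors, which drive fat cell differentiation. The window of Adipoq, which had no match, is on the plus strand at chr16:23146286-23146535, that of Lep on the plus strand at chr6:29059971-29060220 and that of Plin1 on the minus strand at chr7:79732777-79733026, all from RefSeq on GRCm38.p6 and written 5′ to 3′ on the strand of the gene.
Adipoq: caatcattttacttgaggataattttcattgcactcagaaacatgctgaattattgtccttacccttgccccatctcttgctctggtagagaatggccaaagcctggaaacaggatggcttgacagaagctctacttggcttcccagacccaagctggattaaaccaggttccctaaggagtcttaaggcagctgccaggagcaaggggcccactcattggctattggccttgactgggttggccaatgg
Lep: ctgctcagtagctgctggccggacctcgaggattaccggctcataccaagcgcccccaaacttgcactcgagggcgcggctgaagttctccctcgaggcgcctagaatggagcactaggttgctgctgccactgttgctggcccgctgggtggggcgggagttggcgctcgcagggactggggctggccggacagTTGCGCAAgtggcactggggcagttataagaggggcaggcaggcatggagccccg
Plin1: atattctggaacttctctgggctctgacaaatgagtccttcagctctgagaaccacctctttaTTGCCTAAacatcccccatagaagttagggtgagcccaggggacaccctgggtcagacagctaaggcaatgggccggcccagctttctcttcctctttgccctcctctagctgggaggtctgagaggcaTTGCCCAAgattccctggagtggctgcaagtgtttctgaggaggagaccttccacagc
TTGCNNAA, searched on both strands, had 2 matches before Plin1, 1 before Lep and 1 in 1 of the 2 windows of Cidec, which made 3 of the 8 windows found for 7 of the 10 genes. Of all 32851 promoter windows of that length, 9.56% held a match. AGGTCA, the half-site of PPAR and other nuclear receptors, was found on either strand in 14% of all windows and, among the 7 genes with a window, before Ucp1 alone. TATAAA, the TATA box on the strand of the gene, was found in 7.59% of all windows and in 0 of the 8. A match describes the letters only, and no binding was measured. In GENCODE M21 on GRCm38, all protein-coding, Retn lies at chr8:3655770-3660110, Cfd at chr10:79890853-79892655, Cidec at chr6:113424634-113435760, Fabp4 at chr3:10204088-10208576, Car3 at chr3:14863512-14872523 and Ucp1 at chr8:83290352-83298452.

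Col6a1 itself, the targeted gene, had 10034, 10616 and 9344 normalized counts in the Col6a1-/- libraries, against 19907, 18393 and 22331 in the wildtype ones. Its mean was 49.5% of wildtype, with an adjusted p of 0.00643 by limma, so that each library lay on the side its label gives, although reads on Col6a1 remained. Depth was 28055414 to 37904878 reads in genes. The male share of each pool, estimated from 4 Y-linked genes, was 72.5%, 100% and 51.1% in the Col6a1-/- libraries and 0.347%, 3.35% and 51.5% in the wildtype ones, in the order of the replicates. Xist, the other marker of sex, had 12025.4, 28.4 and 10486.5 normalized counts in the Col6a1-/- libraries and 16212.2, 16430.4 and 13591.9 in the wildtype ones. Pools thus differed in sex as well as in genotype. Across genotypes only the third replicates were alike in male share, while their Xist differed. The male share is approximate, since Col6a1-/- replicate 1, at 72.5%, had more Xist than Col6a1-/- replicate 3, at 51.1%. The part of sex in any difference below is given where it was measured, and was otherwise not tested.

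Among the secreted proteins, Adipoq encodes adiponectin, an insulin-sensitizing hormone made almost only by fat cells. It had 377, 592 and 535 normalized counts in Col6a1-/- libraries and 311, 234 and 112 in wildtype libraries, in the order of the replicates, as in all such lists here. The lowest Col6a1-/- library was above the highest wildtype library, though by a small margin, and the means were 501 ± 111 and 219 ± 99.9 (SD, n = 3 each). The log2 fold change was 1.29 (SE 0.31) with an adjusted p of 0.0967 by limma. Lep encodes leptin, the satiety hormone that reports fat mass to the brain. It had 21.7, 53.6 and 17.0 normalized counts in Col6a1-/- libraries and 9.35, 3.29 and 3.87 in wildtype libraries. These rest on 27, 49 and 17 reads in Col6a1-/- libraries and 9, 3 and 4 reads in wildtype libraries. Groups did not overlap, which the filter had fixed for Lep. The log2 fold change was 2.23 (SE 0.50), the largest of the 9, with an adjusted p of 0.0939 by limma. The ratio of the summed reads per size factor was 5.34, and its exact 95% interval, 3.12 to 9.74, reflects read sampling only and not the spread between pools.

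Retn encodes resistin, a hormone that in mice comes from fat cells and opposes insulin. Its normalized counts were 177, 226 and 192 in Col6a1-/- libraries and 92.4, 91.1 and 32.9 in wildtype libraries. Every Col6a1-/- library lay well above the wildtype libraries, and the lowest of them was 1.92 times the highest wildtype value. The log2 fold change was 1.58 (SE 0.34) with an adjusted p of 0.0869 by limma. Cfd encodes complement factor D, or adipsin, the protease that starts the alternative pathway of complement and one of the most abundant products of mouse fat cells. Its normalized counts were 2384, 4542 and 3019 in Col6a1-/- libraries and 2405, 1493 and 773 in wildtype libraries. Wildtype replicate 1 was just above Col6a1-/- replicate 1, so that the groups overlapped, and the log2 fold change of 1.19 (SE 0.35) had an adjusted p of 0.123 by limma.

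**Figure D1:**
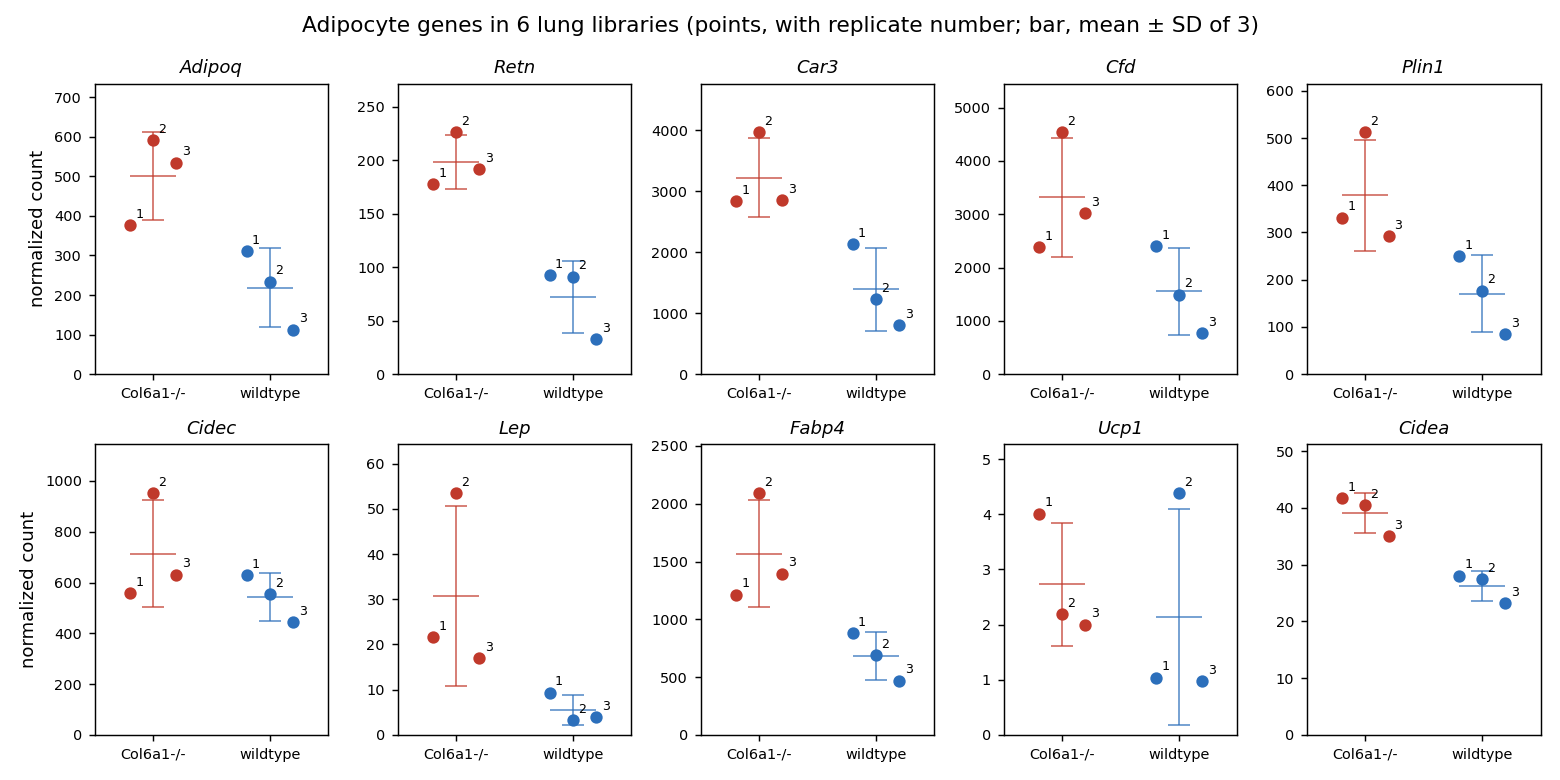
Normalized counts (vertical axis, from 0) of the 10 adipocyte genes in each of the 6 libraries, with Col6a1-/- on the left of each panel and wildtype on the right; points carry the replicate number and bars show the mean ± SD of 3 libraries. Col6a1-/- replicate 2 is the highest library for 8 of the 8 white fat genes and wildtype replicate 3 the lowest for 7 of the 8, while Ucp1 stays under 5 throughout.

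Among the proteins of the lipid droplet, Plin1 encodes perilipin 1, which coats the droplet of fat cells and controls the access of lipases. It had 331, 513 and 293 normalized counts in Col6a1-/- libraries and 249, 177 and 85.2 in wildtype libraries. The groups did not overlap, and the means were 379 ± 117 and 170 ± 82.2 (SD, n = 3 each). The log2 fold change of 1.24 (SE 0.34) had an adjusted p of 0.113 by limma. Cidec (Fsp27 in mice) promotes the fusion of droplets into 1 large one. Its normalized counts were 558, 953 and 631 in Col6a1-/- libraries and 630, 553 and 444 in wildtype libraries. The groups overlapped, and Cidec had the smallest estimate of the 9, a log2 fold change of 0.37 (SE 0.19) with an adjusted p of 0.305 by limma. Without Col6a1-/- replicate 2 that estimate was 0.14.

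Fabp4 encodes the fatty acid binding protein of fat cells, which is also known from capillary endothelium and macrophages, cell types that are plentiful in lung. It had 1214, 2095 and 1396 normalized counts in Col6a1-/- libraries and 884, 692 and 470 in wildtype libraries. The groups did not overlap, and the means were 1568 ± 465 and 682 ± 207 (SD, n = 3 each). The log2 fold change was 1.21 (SE 0.24) with an adjusted p of 0.0792 by limma, the smallest of the 9, and 0.79 in a fit that took out trends with GC and transcript length. In the fixed list of capillary endothelium, the 11 other tested genes had a median log2 fold change of -0.05. In that of alveolar macrophages, the 11 other tested genes had a median of -0.16, and Fabp4 had the highest estimate in either list. Car3 encodes carbonic anhydrase 3, an abundant protein of fat and muscle. It had 2837, 3968 and 2850 normalized counts in Col6a1-/- libraries and 2129, 1231 and 805 in wildtype libraries. The groups did not overlap, and the log2 fold change of 1.31 (SE 0.28) had an adjusted p of 0.0869 by limma.

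Of the brown fat genes, Ucp1 encodes the uncoupling protein itself and is the defining gene of that tissue. It had 5, 2 and 2 reads in Col6a1-/- libraries and 1, 4 and 1 reads in wildtype libraries, 15 in all, which is 4.01, 2.19 and 2.00 normalized counts in Col6a1-/- libraries and 1.04, 4.39 and 0.968 in wildtype libraries. It was below the filter and was not tested, and the groups overlapped. Cidea encodes a droplet protein that is abundant in brown fat and is also made elsewhere. It had 41.7, 40.5 and 35.0 normalized counts in Col6a1-/- libraries and 28.0, 27.4 and 23.2 in wildtype libraries. The groups did not overlap and the libraries within a genotype were close, and the log2 fold change of 0.56 (SE 0.23) had an adjusted p of 0.216 by limma. Elovl3, the fatty acid elongase of brown fat, was listed at 0 in all Col6a1-/- libraries and at 1 read in wildtype replicate 1 alone, and Zic1, a transcription factor of brown fat, at 1 read in Col6a1-/- replicate 2 alone. Zic1 and Elovl3 thus could not be told from 0 in either genotype, and Otop1 and Kng2, also of the brown list, were under 10 normalized counts in every library. Of the 18 genes of that list, however, 13 passed the filter, among them Dio2. Dio2 had 68.2, 37.2 and 77.0 normalized counts in Col6a1-/- libraries and 60.2, 65.9 and 84.2 in wildtype libraries. It was 1 of the 5 with a lower estimate, at a log2 fold change of -0.25 (adjusted p = 0.629 by limma).

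Levels per transcript length, as reads per kilobase scaled to depth (RPKM), put the white fat genes in the same broad order in both genotypes. Cfd was highest, at 117 ± 37.6 RPKM in Col6a1-/- and 54.5 ± 28.6 RPKM in wildtype lungs. Car3 followed, at 62.7 ± 11.6 RPKM in Col6a1-/- and 26.7 ± 12.9 RPKM in wildtype lungs, and Fabp4, at 57.2 ± 16.1 RPKM in Col6a1-/- and 24.5 ± 7.47 RPKM in wildtype lungs, differed from Car3 by less than the spread between libraries. Cidec came next, at 13.6 ± 3.79 RPKM in Col6a1-/- and 10.2 ± 1.77 RPKM in wildtype lungs. Adipoq, at 12.7 ± 2.73 RPKM in Col6a1-/- and 5.47 ± 2.5 RPKM in wildtype lungs, was within the spread of Cidec in Col6a1-/- lungs and below it in wildtype lungs. Retn had 5.70 ± 0.647 RPKM in Col6a1-/- and 2.05 ± 0.968 RPKM in wildtype lungs, and Plin1 4.39 ± 1.29 RPKM in Col6a1-/- and 1.95 ± 0.941 RPKM in wildtype lungs. The lowest levels were those of Cidea (1.15 ± 0.0963 RPKM in Col6a1-/-, 0.759 ± 0.0784 RPKM in wildtype), Lep (0.307 ± 0.194 RPKM in Col6a1-/-, 0.0544 ± 0.0329 RPKM in wildtype) and Ucp1 (0.0547 ± 0.0225 RPKM in Col6a1-/-, 0.0422 ± 0.0389 RPKM in wildtype), all as mean ± SD of 3 libraries. The summed RPKM of Ucp1 and Cidea was 0.611%, 0.341% and 0.430% of that of the 8 white fat genes in Col6a1-/- libraries and 0.457%, 0.724% and 0.954% in wildtype libraries. This share was highest where the white fat genes were lowest, in wildtype replicate 3. The summed RPKM of Ucp1 and Cidea was itself lowest there, at 0.687, of which Cidea made 0.668.

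The white fat genes kept nearly fixed proportions to each other while their levels varied several-fold. Adipoq varied 5.27-fold between the highest and the lowest of the 6 libraries, yet the ratio of Cfd to Adipoq stayed between 5.64 and 7.75 and that of Car3 to Adipoq between 5.26 and 7.52. The ratios to Adipoq were 2.61 to 4.18 for Fabp4, 0.548 to 0.879 for Plin1 and 0.293 to 0.470 for Retn, each a range of about 1.60-fold. These ratios are of normalized counts, which carry transcript length, and their ranges, not their sizes, are compared. Cidec was different, with ratios of 1.48, 1.61 and 1.18 in Col6a1-/- libraries and 2.03, 2.37 and 3.96 in wildtype libraries. It was lower relative to Adipoq in every Col6a1-/- library than in any wildtype library, and the ratio was highest where Adipoq was lowest. The ratio of Cidea to Adipoq ranged 3.16-fold and was also highest in wildtype replicate 3, at 0.207. The ratio of Lep ranged 6.43-fold, from 0.0141 in wildtype replicate 2 to 0.0906 in Col6a1-/- replicate 2, on few reads.

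**Figure D2:**
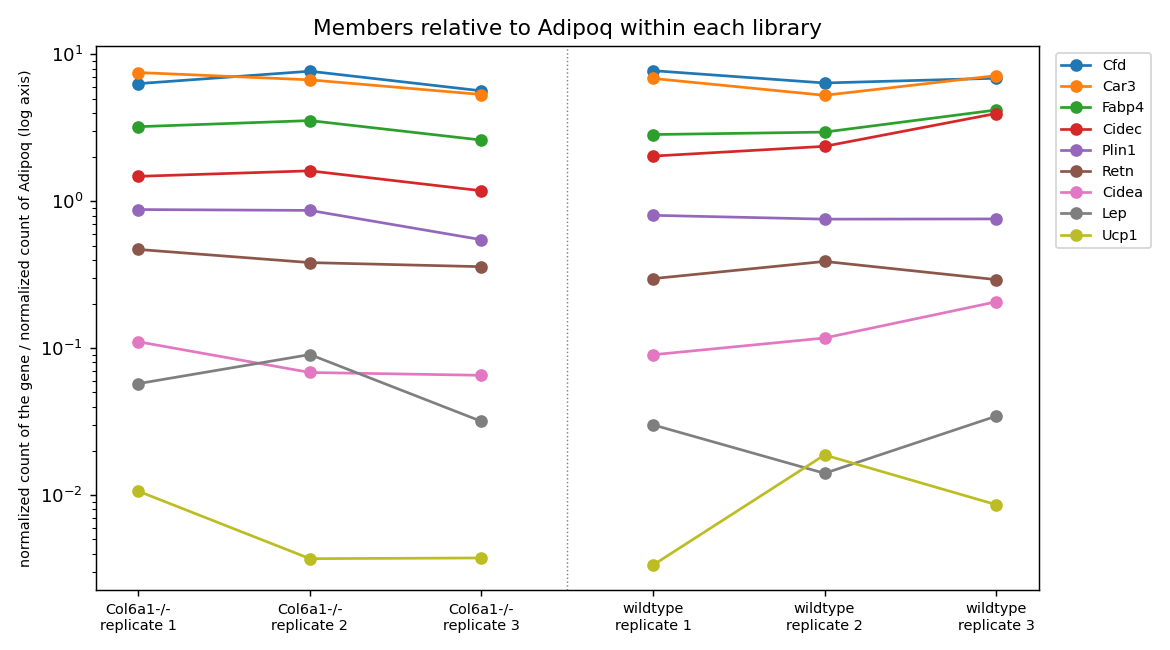
Normalized count of each gene divided by that of Adipoq in the same library (log axis), with the 3 Col6a1-/- libraries on the left and the 3 wildtype libraries on the right. The lines of Cfd, Car3, Fabp4, Plin1 and Retn are nearly level, with ranges of 1.37-fold to 1.60-fold, while Cidec climbs to 3.96 and Cidea to 0.207 in wildtype replicate 3.

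The libraries ranked alike for most of the white fat genes. Within the wildtype group, replicate 1 was highest for 8 of the 8 white fat genes and replicate 3 lowest for 7, with Lep lowest in replicate 2. Within the Col6a1-/- group, replicate 2 was highest for all 8, while replicate 1 was lowest for 6 and replicate 3 for 2, Plin1 and Lep. The 8 genes together held 0.0260%, 0.0417% and 0.0296% of the reads in Col6a1-/- libraries and 0.0216%, 0.0145% and 0.00874% in wildtype libraries. Between the 2 pools of nearly equal male share, Col6a1-/- replicate 3 (51.1%) was above wildtype replicate 3 (51.5%) for each of the 9 tested genes, by 4.76-fold for Adipoq, 5.83-fold for Retn, 4.39-fold for Lep and 1.42-fold for Cidec. That is 1 library of each genotype, without a replicate, and wildtype replicate 3 was the library lowest in fat genes. Their match in sex rests on the Y-linked genes alone, since Xist was 10486.5 in Col6a1-/- replicate 3 and 13591.9 in wildtype replicate 3. Col6a1-/- replicate 2, highest in fat genes, was the pool with a male share of 100%, while wildtype replicate 1, with a share of 0.347%, was the highest of its group. With the male share as a covariate the log2 estimates were larger for 7 of the 9 genes, among them Adipoq (2.02) and Retn (2.41). They were smaller for Lep (1.77) and Cidec (0.34), and the smallest adjusted p by limma among the 9 was 0.386. This covariate also rests on the Y-linked genes alone.

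**Figure D3:**
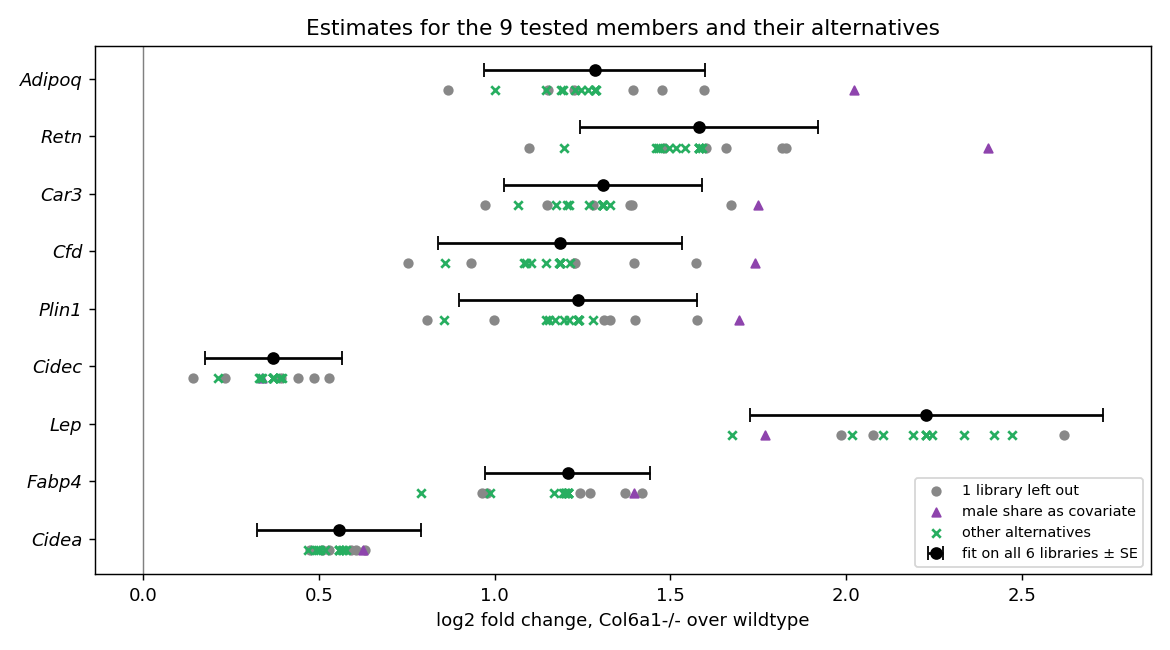
Log2 fold changes of Col6a1-/- over wildtype (horizontal axis) for the 9 tested genes: black points with bars, the estimate from all 6 libraries ± SE; grey, estimates with 1 library left out; purple, with the male share as covariate; green, other settings. All plotted estimates are above 0, and the lowest is that of Cidec at 0.14.

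Over the 9 tested genes the median log2 fold change was 1.24, and with all 10 and no filter on low values it was 1.22. At a filter of 50, which Lep and Cidea missed, the median of the 7 genes left was again 1.24. Over all 16879 tested genes the median was 0.0098, and 8720 of them had a higher estimate in Col6a1-/- lungs. The count of genes that passed depended on the libraries used. Without wildtype replicate 3, limma called 5 of the 9 (Adipoq, Retn, Car3, Lep and Fabp4), among 1383 genes called in all, and the median was 0.87. There too Lep passed the filter only through the Col6a1-/- libraries. The authors' deposited table, whose fold changes lay closer to 0 and which called 5.05% of its genes at an adjusted p under 0.05, had 2 of the 10. In the authors' deposited table these were Retn, with a log2 fold change of 0.85 and an adjusted p of 0.000200, and Fabp4, with 0.58 and 0.0232. The authors' deposited table gave adjusted p-values of 0.0785 for Car3, 0.0939 for Adipoq, 0.149 for Plin1, 0.209 for Cfd and 0.224 for Cidec, and none for Lep, Cidea and Ucp1.

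Other genes of fat metabolism had estimates on either side of 0. In 8 lists of fat cell genes, 87 other genes were tested, and their median log2 fold change was 0.05. Of these, 0 were called by limma, while 14 were higher and 11 lower at an unadjusted p under 0.05, against 9.72% and 10.6% of all tested genes. Genotypes did not overlap for 11 higher and 12 lower genes, against 10.7% and 14.2% of all tested genes. By edgeR 1 was called (Npr3, lower), against 0.077% of all genes. By DESeq2 there were 5, namely Cox7a1, Rbp4 and Thrsp, higher, and Fasn and Npr3, lower, a share near the 5.06% of all genes that DESeq2 called. The counts and medians of each list cover all its tested genes, those of the 10 included.

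Of the secreted proteins of fat cells, 9 of 10 had higher estimates and the median was 0.43. The 6 genes other than Adipoq, Lep, Retn and Cfd had a median of 0.24. Those of smallest p were Rbp4, the plasma carrier of retinol, at 0.44 (adjusted p = 0.130 by limma), and Agt, angiotensinogen, at 0.33 (adjusted p = 0.374 by limma). Of the lipid droplet genes, 10 of 14 had higher estimates, with a median of 0.17 and of 0.05 without the shared members. Plin2, the droplet coat of most cell types, had 3541, 3464 and 3970 normalized counts in Col6a1-/- libraries and 4686, 4735 and 4175 in wildtype libraries. It thus lay lower in Col6a1-/- lungs without overlap, at a log2 fold change of -0.31 (adjusted p = 0.127 by limma), unlike Plin1. Fitm1, a protein of droplet formation, stood at 0.94 (adjusted p = 0.167 by limma).

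Of the lipolysis genes, 5 of 12 had higher estimates. Aqp7, the glycerol channel of fat cells, had 20.9, 29.5 and 17.0 normalized counts in Col6a1-/- libraries and 13.5, 4.39 and 1.94 in wildtype libraries, in the same order as the white fat genes within the wildtype group. Its log2 fold change was 1.90 (SE 0.55) with an adjusted p of 0.12 by limma. Npr3, the clearance receptor of natriuretic peptides, was lower, at -0.74 (adjusted p = 0.0622 by limma). Of the genes of fatty acid and glucose uptake, 8 of 10 had higher estimates with a median of 0.19. Fabp5, another fatty acid binding protein, stood at 0.27 (adjusted p = 0.189 by limma), and Slc2a4, the insulin-regulated glucose transporter, stood at 0.40 (adjusted p = 0.231 by limma). Of the synthesis genes, 11 of 17 had higher estimates with a median of 0.13. In that list Thrsp, a nuclear protein tied to lipogenesis, had a log2 fold change of 0.98 (adjusted p = 0.0950 by limma), and Fasn, the fatty acid synthase that alveolar type 2 cells use too, had -0.39 (adjusted p = 0.128 by limma).

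Among the transcription factors of fat cells, 5 of 12 had higher estimates and the median was -0.08. Pparg, the master regulator of fat cell differentiation that alveolar macrophages also need, had 298, 313 and 333 normalized counts in Col6a1-/- libraries and 297, 307 and 305 in wildtype libraries, which differed by less than the spread between libraries. Zfp423, a factor of fat cell precursors, stood at -0.46 (adjusted p = 0.131 by limma) and Ebf2, a factor of brown fat identity, at 0.59 (adjusted p = 0.327 by limma). Of the brown and beige fat genes, 8 of 13 tested had higher estimates, with a median of 0.20. Cox7a1, a cytochrome oxidase subunit of brown fat, heart and skeletal muscle, had 116, 164 and 152 normalized counts in Col6a1-/- libraries and 80.0, 92.2 and 93.9 in wildtype libraries (adjusted p = 0.103 by limma). Cox8b, another such subunit, stood at 0.45 (adjusted p = 0.222 by limma). Of the genes of fat cell precursors and fat stroma, 6 of 11 tested had higher estimates, with a median of 0.02, and Pdgfra, their surface receptor, which lung fibroblasts also carry, had -0.32 (adjusted p = 0.185 by limma). In the same list F3, tissue factor, stood at 0.42 (adjusted p = 0.156 by limma), and Dlk1, a precursor protein, was under 10 normalized counts in every library.

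**Figure D4:**
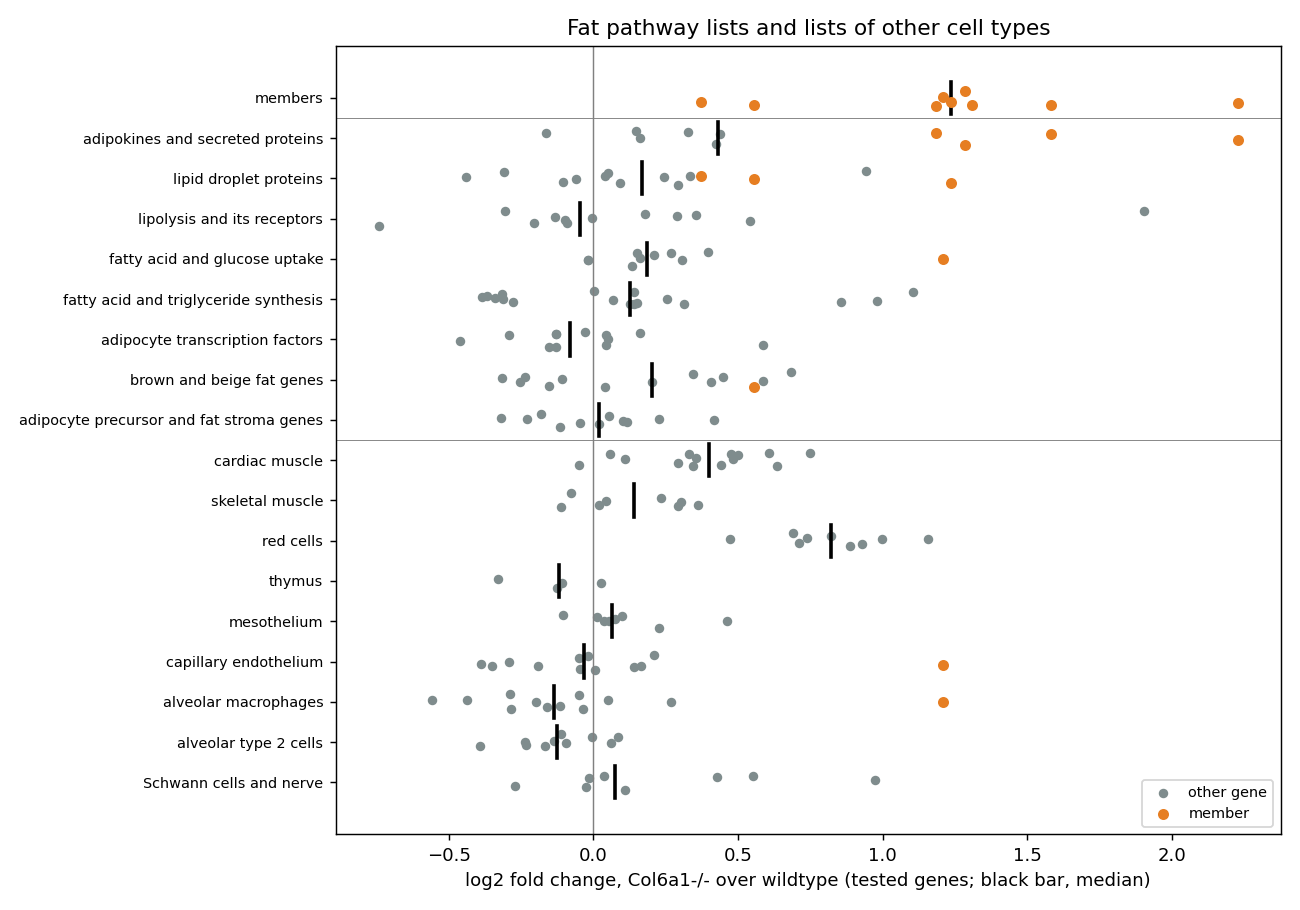
Log2 fold changes of Col6a1-/- over wildtype (horizontal axis) for each tested gene of the 10 chosen genes (top row, "members"), of 8 lists of fat cell genes (middle) and of 9 lists of other cell types (bottom), with the median of each row as a black bar; orange points are the chosen genes where they recur. The top row has a median of 1.24, the fat lists lie between -0.08 and 0.43, and among other cell types red cells (0.82) and cardiac muscle (0.40) lie farthest to the right.

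Genes of some other cell types also had higher estimates in Col6a1-/- lungs. Whether such cells belong to the lung or were carried along was not tested. All 9 tested genes of red cells had higher estimates in Col6a1-/- lungs, with a median log2 fold change of 0.82. Of them, 7 were higher without overlap, against 10.7% of all tested genes. The summed normalized count of that list was 64216 to 105203 in Col6a1-/- libraries and 43429 to 49608 in wildtype libraries. Within the Col6a1-/- group it was lowest in replicate 2, the library highest in fat genes. Of 14 cardiac muscle genes, 13 had higher estimates, 9 without overlap against the same 10.7%, with a median of 0.40. Their summed level was 26590 to 28364 in Col6a1-/- libraries and 19376 to 25672 in wildtype libraries, and it was highest in Col6a1-/- replicate 2 and lowest in wildtype replicate 3, as were the fat genes. No gene of either list was at 0 in all libraries, and of the 82 tested genes of the 9 lists of other cell types, Fabp4 left out, 0 were called by limma and 0 by edgeR. Of these 82, 23 were higher and 9 lower at an unadjusted p under 0.05 by limma, against 9.72% and 10.6% of all tested genes. DESeq2 called 15 higher and 6 lower, against 5.06% of all genes it tested in either direction. The medians of skeletal muscle (0.14), mesothelium (0.06), Schwann cells (0.07) and thymus (-0.12) were nearer 0. The part of these cell types in the differences of the fat genes was not tested.

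How alike single genes were to the white fat profile was measured as the root-mean-square distance, in log2 units over the 6 libraries, between centred levels. To the mean of the other white fat genes, Car3 (0.121), Fabp4 (0.128), Plin1 (0.154), Cfd (0.167) and Adipoq (0.203) were closest, then Retn (0.327), Cidec (0.586) and Lep (0.697). Cidea was at 0.520 and Ucp1 at 0.831. The search covered 13281 other tested genes with a mean normalized count of at least 50, and left out symbols of the Gm and Rik type. Among them, the 8 nearest to the mean of the white fat genes were Thrsp (0.203), Jchain (0.208), Pck1 (0.280), Cyp2e1 (0.375), Ppp1r1a (0.381), Bpifa1 (0.382), Lgals12 (0.382) and Fam19a5 (0.388). Of these, 2 stood in the lists of fat cell genes, Thrsp and Pck1, the enzyme that supplies glycerol for triglyceride in fat cells. Pck1 had 292, 585 and 309 normalized counts in Col6a1-/- libraries and 363, 169 and 85.2 in wildtype libraries. Cyp2e1, a cytochrome P450 of liver and fat, had 573, 1763 and 660 in Col6a1-/- libraries and 356, 289 and 244 in wildtype libraries, with the steepest excess in Col6a1-/- replicate 2. Lgals12 encodes a galectin known from fat cells, and Bpifa1 a secreted protein known from the upper airways. Jchain, which joins antibody chains in plasma cells, had 125, 191 and 142 in Col6a1-/- libraries and 132, 70.3 and 48.4 in wildtype libraries. A profile over 6 libraries that share their depth, pools and genotypes is a description only.

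**Figure D5:**
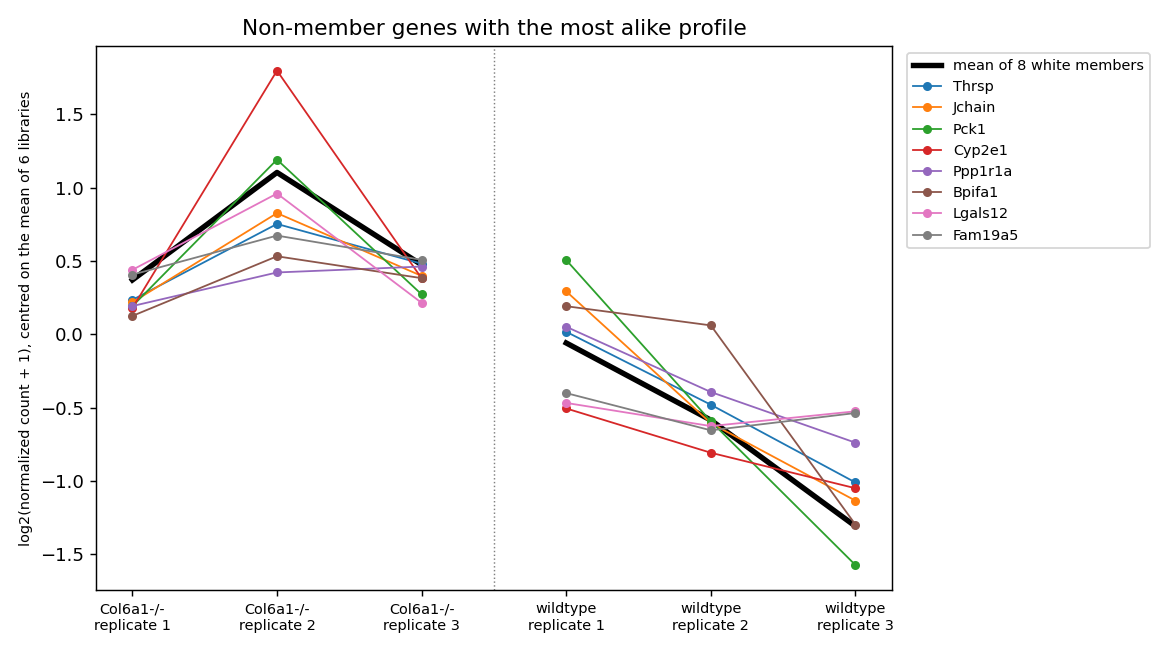
Centred log2(normalized count + 1) (vertical axis) in the 3 Col6a1-/- libraries on the left and the 3 wildtype libraries on the right. Black is the mean of the 8 white fat genes, and colours are the 8 genes nearest to it among those searched. The black line peaks in Col6a1-/- replicate 2 at 1.10 and is lowest in wildtype replicate 3 at -1.31, and Thrsp, Jchain and Pck1 follow it in both groups.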

How the data were processed

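RNA of 6 lung libraries, 3 per genotype, was sequenced. The submitters' processing notes name GRCm38.p5, DESeq2 1.16.1, R 3.4.1, featureCounts, Subread 1.5.0p3, STAR 2.5.2b and Trimmomatic 0.36, with no role for any. Their strand setting and annotation release are not stated. The deposited signal was a normalized count per gene that the authors made with DESeq2, as its table is named. All values (100%, to within 1e-06) were whole reads divided by a size factor per library (0.911 to 1.25). That held in Col6a1-/- replicate 3 too, where a factor of 1.0003 left Adipoq at 534.819 for 535 reads. The authors' deposited table of the comparison held a score per gene (mean and test statistic), a log2 fold change, a raw p-value and an adjusted one.

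limma 3.58.1 (limma-trend, two-sided, no covariate, R 4.3.3) was run on log2(normalized count + 1), which understates the change of low genes. The test was checked on simulated data, but not for changes in genes as low as Lep, Cidea or Ucp1. The simulated libraries also varied less than those here did for most white fat genes, so the check does not cover these genes. The members and lists were chosen with earlier results of these data known. Named were the 10 genes and, in each fat list, the 2 non-member genes of smallest p with list genes under 10 everywhere. Also named were the 8 nearest profiles with a mean of at least 50 and no Gm or Rik symbol. Others named were chosen after their values were seen. Gene lengths are those of the longest protein-coding transcript in GENCODE M21 on GRCm38 (97.4% of tested genes). The male share is the mean of Ddx3y, Eif2s3y, Kdm5d and Uty relative to Col6a1-/- replicate 2, the library of lowest Xist. P-values cover pools of 2 animals. Same-numbered libraries deviated with correlations of -0.14, 0.11 and -0.006, within the -0.15 to 0.20 of differently numbered ones. No pairing by number was seen, though so few values cannot exclude one. Alternatives were pseudocounts of 0.5 and 5, a filter at 50 or none, quantile normalization, median centring, library weights, robust moderation, edgeR 4.0.16 and DESeq2 1.42.0 on the recovered reads, a replicate block, the male share, a length and GC trend (natural splines, 5 degrees of freedom) and each library left out.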

Additional observations from a re-analysis of the deposited data

How the results depend on the processing

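The estimates of the 9 tested genes were higher in Col6a1-/- lungs under each of the 19 alternatives in which a gene could be tested, and their median ran from 0.87 without wildtype replicate 3 to 1.74 with the male share as covariate. The count of calls was what varied. It was 0 in the main test and 3 without a filter on low values (Retn, Car3 and Fabp4), 7 with library quality weights, where 19.1% of all genes were called, and 2 with DESeq2 on the recovered reads (Retn and Fabp4). Leaving out 1 library gave 0 to 5 calls. Of 164 adjusted p-values of single genes, 147 stayed above the threshold and 17 passed it; DESeq2 gave none for Lep, Cidea and Ucp1. Lep could not be tested without any 1 Col6a1-/- library, because it then missed the filter. The replicate block gave 0 calls by limma, with a smallest adjusted p of 0.0615, and changed no call. The labels name no pairing. Calls over all genes were 11 in the main test, 7 under the block, 7 at a filter of 50, 93 without a filter, 26 with median centring, 30 with robust moderation, 3225 with weights, 90 with the length and GC trend removed, 742 with DESeq2, 0 with the male share and 0 to 1383 with 1 library left out. The cause of these shifts was not tested. Medians of the lipolysis list (-0.05) turned sign under 7 alternatives, among them quantile normalization, that of the precursor list (0.02) under 5, among them median centring, that of capillary endothelium under 4, and those of the transcription factors, thymus and mesothelium under 1 each. Depth limits Lep and Ucp1, with 93 and 16 reads of Lep in Col6a1-/- and wildtype libraries and 15 of Ucp1 in all.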
